A study of Homo sapiens with 18 samples.

Results

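The AP-1 family genes FOS, FOSB, FOSL1, FOSL2, JUN, JUNB, JUND, ATF3, BATF and BATF3 were followed in ATAC-seq data, in which the Tn5 transposase cuts accessible DNA and the reads over a region measure how open it is. A region belonged to a gene when it overlapped the gene body or the 20 kb on either side of it (GENCODE annotation on GRCh37, the hg19 build), which gave 65 of the 115087 regions of the deposited table. The cells were SCC1, SCC6 and SCC25, established head and neck squamous cell carcinoma (HNSCC) lines, each treated for 5 days with either 100 nM of cetuximab, an antibody that blocks the epidermal growth factor receptor (EGFR), or the vehicle PBS. There were 3 cetuximab and 3 PBS libraries for SCC6 and for SCC25, and 3 cetuximab and 2 PBS libraries for SCC1, whose PBS replicate 2 was not analysed here. Each line is 1 culture model of the disease, and the labels do not say whether replicates came from separate cultures, so the p-values measure only the spread between these samples, which may be technical.

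AP-1 is a dimer of basic leucine zipper (bZIP) proteins. Fos proteins (FOS, FOSB, FOSL1, FOSL2) do not pair with each other and need Jun proteins (JUN, JUNB, JUND) or another partner, Jun proteins can also pair among themselves, and ATF3, BATF and BATF3 are relatives that dimerise with Jun proteins. The dimers bind the TPA response element TGAGTCA and, in some pairings, the cyclic AMP response element TGACGTCA. EGFR signalling through ERK induces FOS and FOSL1 and stabilises their proteins, and serum response factor acts on FOS and JUNB through sites of the CArG box type. In squamous epithelium AP-1 is known for its part in differentiation, invasion and the expression of matrix metalloproteinases.

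All values below are the deposited scaled signal, which is a whole number of reads multiplied by 1 constant per library, with regions without reads set to 1 read. The libraries held between 2194851 and 15017130 reads in regions, and the median region held 7 to 68, and the smallest was SCC1 cetuximab replicate 2. AP-1 regions were deeper, with medians between 26 and 173 reads. Of the 65 regions, 11 were at the promoter of the gene itself (within 1 kb of a start site), 11 were at the promoter of a neighbouring gene, 11 lay in the gene body and 32 in the flanks. Their median GC content was 63.7%, against 45.9% for all regions, and 33.8% of them were promoters, against 13.5%. The cells were checked against keratinocyte markers. The KRT14 promoter had a mean signal of 1.66 and 1.82 in the SCC6 groups against 32.1 to 70.3 in the others, KRT6A was likewise low in SCC6 (6.01 and 9.73), while the KRT5, TP63, CDH1 and EPCAM promoters were open in all groups, between 18.5 and 148. The promoter of the fibroblast gene COL1A1 was also open in all groups, between 101 and 161, and was higher after cetuximab in SCC1 (0.66, adjusted p = 0.0413 by limma) and over all lines (0.40, adjusted p = 0.0143), whose part in the AP-1 results was not tested. Promoters of PTPRC, CD3E, PECAM1, CDH5 and PDGFRB had no region in the table.

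Sequences of some regions named below are shown first, all from the plus strand of GRCh37. Stretches of 4 regions with a treatment change are printed in lower case. None of the 3 motifs searched (TGAGTCA, TGACGTCA and the CArG box, on both strands) was found in them. Other changed regions do hold such letters, among them the region 32.2 kb downstream of BATF3, which rose in SCC6 and holds TGAGTCA. These letters being absent from a window says nothing about the factors. The first of the 4 printed stretches lies 11.6 kb upstream of the FOS start site, outside the gene, at chr14:75733902-75734067.
FOS upstream region: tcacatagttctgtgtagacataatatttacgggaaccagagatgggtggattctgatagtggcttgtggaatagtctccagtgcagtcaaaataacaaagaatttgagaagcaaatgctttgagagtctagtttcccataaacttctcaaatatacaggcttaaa
The second lies 14.8 kb upstream of the canonical ATF3 start site, in an intron of the longer ATF3 transcripts, at chr1:212767157-212767429.
ATF3 intronic region: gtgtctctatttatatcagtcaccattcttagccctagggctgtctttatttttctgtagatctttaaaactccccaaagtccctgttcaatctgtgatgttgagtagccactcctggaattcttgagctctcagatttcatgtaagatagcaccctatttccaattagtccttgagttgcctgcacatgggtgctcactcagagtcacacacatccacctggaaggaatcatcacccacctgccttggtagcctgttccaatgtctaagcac
The third lies 20.8 kb downstream of the JUN start site, outside the gene, and its central 300 of 465 bases are chr1:59228757-59229056.
JUN downstream region: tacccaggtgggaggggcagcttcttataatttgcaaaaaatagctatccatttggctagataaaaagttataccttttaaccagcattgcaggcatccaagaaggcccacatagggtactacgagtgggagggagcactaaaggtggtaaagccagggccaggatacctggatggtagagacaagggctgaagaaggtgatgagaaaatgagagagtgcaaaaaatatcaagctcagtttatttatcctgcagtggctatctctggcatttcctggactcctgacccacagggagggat
The fourth lies 7.38 kb upstream of the JUNB start site, and its central 300 of 683 bases are chr19:12894769-12895068.
JUNB upstream region: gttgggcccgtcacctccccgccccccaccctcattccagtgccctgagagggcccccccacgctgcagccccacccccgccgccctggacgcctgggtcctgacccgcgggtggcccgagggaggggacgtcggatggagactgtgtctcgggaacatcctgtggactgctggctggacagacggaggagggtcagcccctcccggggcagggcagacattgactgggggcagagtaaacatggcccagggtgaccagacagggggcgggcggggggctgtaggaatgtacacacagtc

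Motif matches in the promoter region named for each gene and in the region 1.48 kb upstream of JUNB are given next. Each has 10 bases on each side and the match in capitals. Matches in other regions are not printed. Among them is a TPA response element in the region 5.01 kb upstream of JUNB, and another in a further FOSL1 promoter region 1.01 kb downstream of its start. The FOS promoter and the region 1.48 kb upstream of JUNB each hold a CArG box, at chr14:75745207-75745236 and chr19:12900752-12900781.
FOS promoter, CArG box: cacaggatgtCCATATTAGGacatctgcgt
JUNB upstream, CArG box: cttcctgtgcCCTAATATGGgcggcgggga
The FOSL1 and FOSL2 promoters hold the TPA response element, read here as its reverse complement TGACTCA, at chr11:65667844-65667870 and chr2:28615719-28615745.
FOSL1 promoter, TPA response element: tgctgggttcTGACTCAcccgcgccgt
FOSL2 promoter, TPA response element: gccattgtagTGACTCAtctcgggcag
The JUND promoter holds the cyclic AMP response element at chr19:18392615-18392642.
JUND promoter, cyclic AMP response element: ccttgtgggtTGACGTCAtgggggcggc
TGAGTCA or its complement was in 18 of the 65 regions (27.7%) and in 26.6% of all regions. TGACGTCA was in 2 (3.08%) against 0.686%, and a CArG box in 3 (4.62%) against 1.73%. The regions differ in width, with a median of 399 bases at the AP-1 loci and 258 over the table, and these shares were not tested.

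The question of each comparison was whether accessibility differed between cetuximab and PBS after 5 days. In SCC1, AP-1 regions were higher after cetuximab in 16 cases and lower in 1, of 62 tested (limma on log2(signal + 1), Benjamini-Hochberg adjusted p under 0.05). Over all 86299 regions tested in SCC1, 4.41% were called higher and 6.37% lower. In SCC6 the calls went mainly the other way, with 5 higher and 10 lower of 62, against 16.3% and 10.4% of all regions. In SCC25 none of 61 passed, against 0.0348% called higher and 0.243% called lower of all regions. In SCC25, 8 regions (13.1%) had an unadjusted p under 0.05, as did 13.2% of all regions. There edgeR called 2 and DESeq2 1, beside 1.09% and 0.315% of all regions. The median log2 change of the tested AP-1 regions stood at 0.55 for SCC1, -0.13 for SCC6 and 0.08 for SCC25, beside -0.09, 0.11 and -0.08 over all regions.

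**Figure D1:**
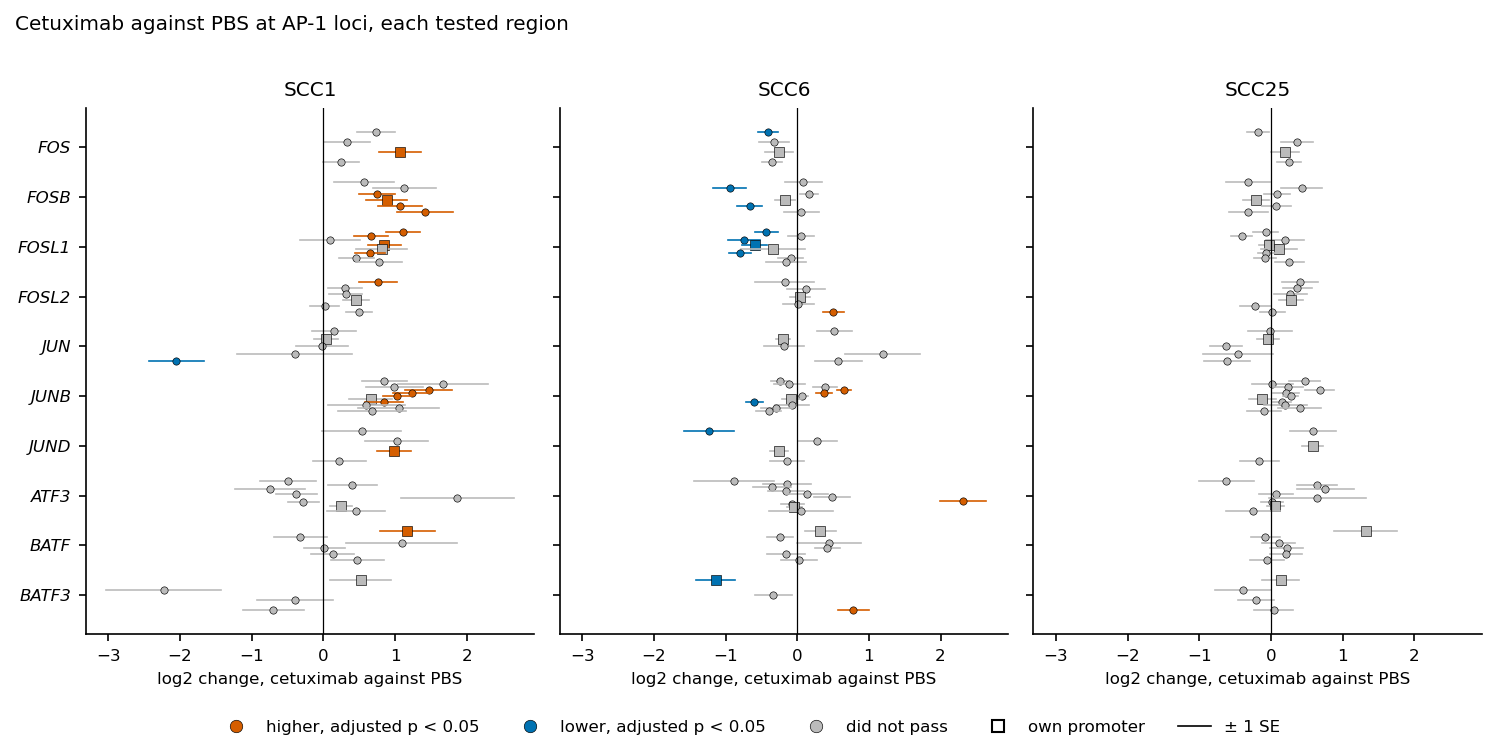
Log2 change (cetuximab against PBS, ± 1 SE) of each tested AP-1 region, by gene and cell line. Orange points passed the test as higher, blue as lower and grey did not pass, and squares are the promoters of the genes themselves: SCC1 shows 16 orange and 1 blue, SCC6 shows 5 and 10, and SCC25 shows only grey.

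In SCC1, 5 of 11 of the genes' own promoter regions, 3 of 11 neighbouring promoters, 8 of 31 flanking regions and none of 9 gene body regions were higher. By gene, FOSB, FOSL1 and JUNB had 4 higher regions each and FOS, FOSL2, JUND and BATF 1 each. The groups of libraries did not overlap at 15 of the 17 called regions (88.2%), against 98.2% of all regions called in SCC1. Other regions of the same kind also rose in SCC1: 13.1% of the promoters of any gene and 2.65% of other regions were higher, as were 15% of regions at or above the AP-1 median GC content, where the AP-1 regions themselves had 12 of 33 higher (36.4%). Within 1 Mb outside the gene windows, 42.9% of 119 regions around FOSL1, 29.8% around FOSB, 27.2% around JUNB and 20.2% around JUND were higher. The count of 17 rested on the SCC1 libraries. Without cetuximab replicate 1 it was 7 of 62, beside 5365 of all 86303 regions. Without cetuximab replicate 3 it was 8 of 62, beside 6491 of 86304. Once the trend with GC content was removed in each library it was 3 of 62 (4.84%), beside 3971 of 86299. Leaving out PBS replicate 1 or 3 left 1 PBS library. The median log2 change of the AP-1 regions was then 0.51 or 0.52, beside -0.15 or -0.08 over all regions.

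In SCC6 the direction of the calls depended on the scaling. With libraries centred on their median, 3 of 62 AP-1 regions were higher and 15 lower, beside 9960 and 15542 of all 86315. With DESeq2 these were 3 and 11, beside 8915 and 9181. When scaled to regions without a peak they were 13 and 6, beside 25835 and 5125. With the GC trend removed they were 9 and 1, beside 13058 and 7213. The median of all regions moved with the scaling, from 0.11 to -0.06 under centring and to 0.33 under the scaling without peaks. Directions in SCC6 are therefore relative to the deposited scaling. Of the promoters of any gene in SCC6, 10.7% were lower and 3.63% higher.

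Of the 60 AP-1 regions tested in both SCC1 and SCC6, 5 (8.33%) were called higher in SCC1 and lower in SCC6, and none the opposite. Over all 69910 regions tested in both, 0.432% were called higher in SCC1 and lower in SCC6, 0.578% the opposite and 1.11% higher in both. These 5 were 3 regions of FOSL1, 1 of FOSB and 1 of JUNB. The 2 regions called higher in both lines were the neighbours 7.38 and 5.01 kb upstream of JUNB. The interaction of line and treatment tests whether the response differed between the lines. It was called in 17 of 61 AP-1 regions (27.9%), against 13.8% of all regions. Once the GC trend was removed it was called in 4 (6.56%), beside 8830 of all 86315 regions.

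FOS is an immediate early gene that growth factors induce within minutes. The signal of its promoter (chr14:75745098-75745585) was 103, 62.3 and 121 in the SCC1 cetuximab libraries and 29.9 and 62.5 in PBS. The groups met at 62.3 and 62.5, and the fitted change was 1.07 ± 0.30 (SE) on the log2 scale (limma, adjusted p = 0.00958). The call was lost without PBS replicate 1 (adjusted p = 0.534 by limma), without cetuximab replicate 1 (0.0896) or 3 (0.108), and with the GC trend removed (0.367). In SCC6 the promoter was at 58.6, 65 and 80.7 with cetuximab and 74.9, 80.3 and 87 with PBS, and its log2 change of -0.25 did not pass. In SCC25 the change was 0.19, again not passing.

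The region 11.6 kb upstream of FOS held at most 7 reads in every library but those of SCC6 treated with cetuximab. There its signal was 11.1, 22.3 and 18.8, from 11, 24 and 57 reads, and it was called a peak in 2 of the 3 libraries. In SCC6 PBS it was 1.21, 0.669 and 1.09, which is at most 1 read in each library, so the mean with cetuximab was at least 5.86-fold higher against a floor of 3 reads per library. The filter on low signal removed this region from the test; without the filter its log2 change was 3.17 ± 0.54 (SE; limma, adjusted p = 2.35e-05), a value that depends on the 1 added before the logarithm. In SCC25 the cetuximab libraries were at 1.41, 4.56 and 3.54 and the PBS libraries at 1.51, 0.721 and 0.848, and in SCC1 no library was above 2.54. The region 19.8 kb upstream, in contrast, fell in SCC6, from 174, 166 and 147 to 105, 130 and 133 (-0.41 ± 0.14, adjusted p = 0.0279 by limma), a call lost without cetuximab replicate 1 (0.154) or PBS replicate 1 (0.102) or 2 (0.0925), with all libraries in 1 fit (0.124), when scaled to regions without a peak (0.338) and with the GC trend removed (0.459).

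FOSB, which also has a shorter form without the transactivation domain, had 4 higher regions in SCC1, and only 1 with the GC trend removed. Its promoter region (chr19:45972477-45973186, 1.58 kb from the canonical start and near a second start site) was at 142, 56.4 and 139 with cetuximab and 48.1 and 64.8 with PBS in SCC1. Replicate 2 lay within the PBS range, and the change was 0.88 ± 0.29 (limma, adjusted p = 0.0299), which did not pass when any library but cetuximab replicate 2 was left out (adjusted p from 0.0597 to 0.375). The region 17.4 kb downstream, inside RTN2, showed the largest SCC1 change of the locus, with 71.1, 31.1 and 67.3 against 22.1 and 16.7 (1.42 ± 0.39, adjusted p = 0.00754 by limma). It did not pass without PBS replicate 3 (0.128) or cetuximab replicate 1 (0.106) or 3 (0.0718). A pair of regions at start sites of ERCC1, a DNA repair gene whose longer transcripts overlap FOSB, fell in SCC6. The first, 17.1 kb upstream of FOSB, went from 77.3, 74.9 and 66.3 to 39.4, 44.6 and 29.8 (-0.94 ± 0.23, adjusted p = 0.00148 by limma; 0.138 with the GC trend removed). The second, 10.9 kb downstream, was lower in SCC6 (-0.66, adjusted p = 0.00337) and higher in SCC1 (1.07, adjusted p = 0.00993, both by limma), and its interaction was called under all 26 alternatives. Its call in SCC6 was lost without PBS replicate 1 (0.0567) and its call in SCC1 without PBS replicate 1 (0.373) or cetuximab replicate 1 (0.0969) or 3 (0.0893).

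FOSL1 encodes FRA1, a Fos protein that ERK phosphorylation stabilises. Its promoter (chr11:65667835-65668233, covering the first exon and its untranslated part) was at 183, 121 and 188 with cetuximab and 92.4 and 84.9 with PBS in SCC1. In SCC6 the order was the opposite, with 62.6, 93.8 and 75 after cetuximab and 114, 126 and 107 in PBS. In SCC25 it was at 136, 131 and 149 against 142, 118 and 165. The groups did not overlap in SCC1 and SCC6 and overlapped in SCC25. The log2 change was 0.85 ± 0.23 in SCC1 (adjusted p = 0.00723), -0.59 ± 0.18 in SCC6 (adjusted p = 0.00936) and -0.02 in SCC25, with an interaction at adjusted p = 0.00185 (all by limma). The interaction was called under 25 of 26 alternatives, the exception being the removal of the GC trend (adjusted p = 0.139 by limma), and the SCC1 call was lost when any library but cetuximab replicate 2 was left out (adjusted p from 0.0643 to 0.135). The SCC6 call was lost without cetuximab replicate 1 (0.0661) or PBS replicate 2 (0.0717) and when scaled to regions without a peak (0.1).

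Of the neighbours of FOSL1, the CCDC85B promoter and the shared promoter of C11orf68 and DRAP1 showed the same pair of directions. Not all neighbours did: the region 15.5 kb upstream did not fall in SCC6 (mean 84.6 with cetuximab and 81.5 with PBS). The CCDC85B promoter, 9.5 kb downstream, was at 89.9, 81.7 and 73.4 with cetuximab and 146, 133 and 148 with PBS in SCC6 (-0.80 ± 0.16, adjusted p = 0.000114 by limma) and was higher in SCC1 (0.65, adjusted p = 0.027). The shared promoter of C11orf68 and DRAP1, 18.9 kb upstream, was higher in SCC1 (1.11 ± 0.24, adjusted p = 0.000461 by limma) and lower in SCC6 (-0.43, adjusted p = 0.0359), the first lost without PBS replicate 1 (0.0789) and the second in 4 of the 6 fits that left out a library. The SCC6 fall at CCDC85B passed in every fit that left out a library, while its SCC1 rise passed only in that without cetuximab replicate 2. In all, 4 of the 8 FOSL1 regions fell in SCC6, where 3.42% of the 117 regions within 1 Mb fell. With the GC trend removed no FOSL1 region passed in either line, and 1 was lower in SCC6 when scaled to regions without a peak.

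FOSL2, which encodes FRA2, moved less. Its promoter (chr2:28615172-28615932) was at 275, 239 and 300 against 178 and 219 in SCC1, groups that did not overlap, but the change of 0.45 did not pass (limma, adjusted p = 0.0962). The region 44.3 kb downstream of the start rose in SCC6, from 108, 112 and 97.9 to 128, 152 and 173 (0.50 ± 0.15, adjusted p = 0.00936 by limma). This rise did not pass when centred (0.111 by limma), without cetuximab replicate 3 (0.0645 by limma) or with DESeq2. The flanking region 15.4 kb upstream rose in SCC1 (0.76 ± 0.26, adjusted p = 0.0442 by limma), again only while both PBS libraries and cetuximab replicates 1 and 3 were kept. With all libraries kept, its call was also lost with the GC trend removed and when scaled to regions without a peak.

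**Figure D2:**
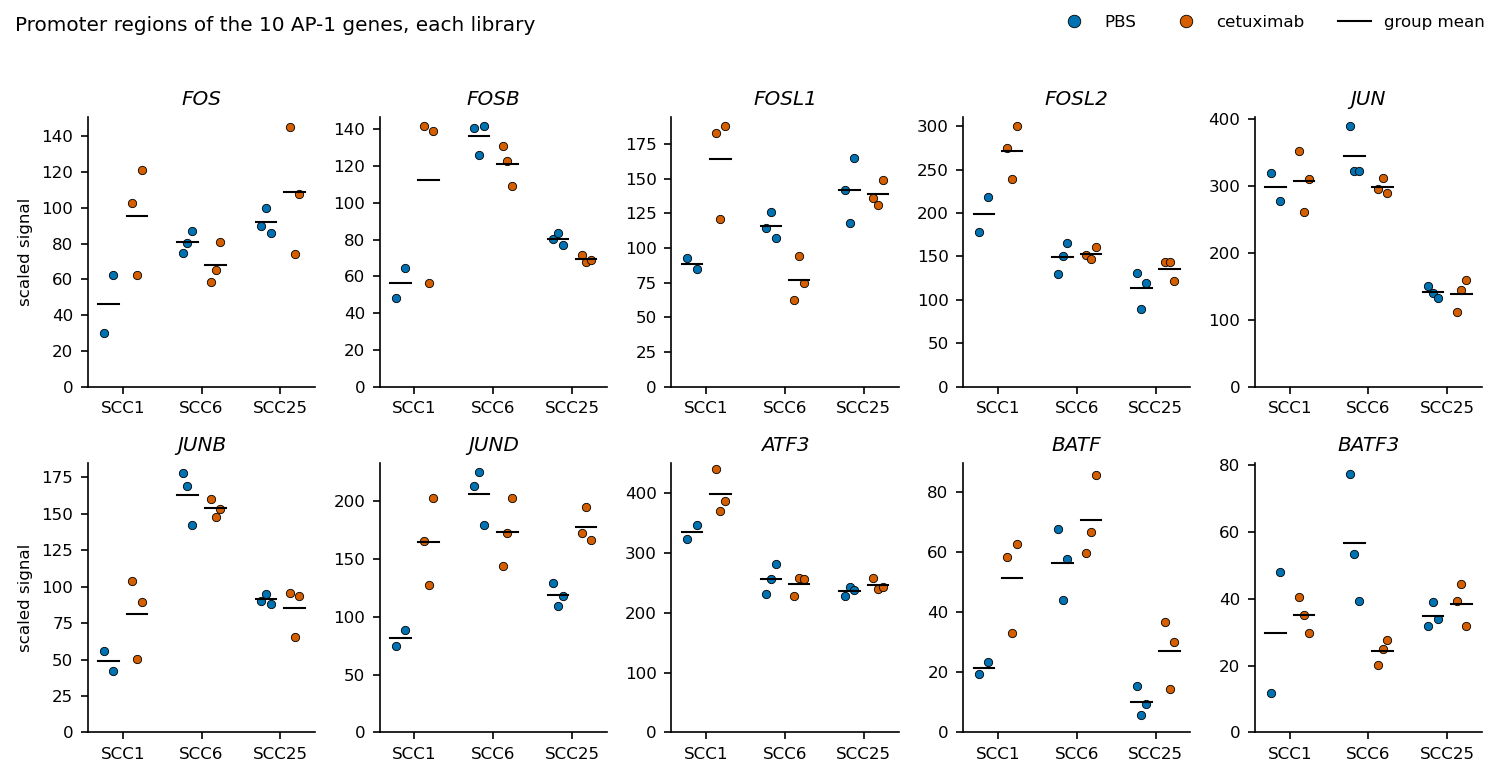
Scaled signal at the promoter region of each of the 10 genes, with 1 point per library (blue PBS, orange cetuximab) and a line at each group mean. The FOSL1 points show the cetuximab libraries above PBS in SCC1 and below PBS in SCC6, while JUN and ATF3 show no treatment difference that passed the test.

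JUN encodes the central Jun protein, and its promoter did not pass the main test in any line. It was at 353, 261 and 310 with cetuximab and 320 and 277 with PBS in SCC1, and the log2 changes were 0.04 in SCC1, -0.20 in SCC6 and -0.04 in SCC25. The SCC6 change passed as lower when centred (limma, adjusted p = 0.00367), with edgeR (0.0315) and with DESeq2 (0.0493). The region 20.8 kb downstream behaved differently. In SCC1 it was at 89.8 and 84.9 with PBS and at 19, 31.1 and 14.1 with cetuximab, so that the 2 groups were far apart. This fall of 2.05 ± 0.38 on the log2 scale (limma, adjusted p = 3.86e-05) was the only one among the SCC1 calls and passed under all 15 alternatives, with values from -2.34 to -1.80. It was a peak in both SCC1 PBS libraries and in none of the SCC1 cetuximab libraries. In SCC25 it was at 16.9, 29.3 and 15.9 against 33.9, 26 and 33.9 (-0.61, adjusted p = 0.423 by limma), and in SCC6 at 25.3, 37.1 and 18.8 against 15.7, 14.1 and 22.8 (0.58, adjusted p = 0.195). The interaction at this region had an adjusted p of 0.00319 by limma, and of 0.0938 with all libraries thinned to the smallest.

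JUNB, a Jun protein with weaker transactivation that can oppose JUN, had 11 regions within 20 kb, most of them inside long transcripts of HOOK2. The region 7.38 kb upstream rose in SCC6 from 244, 270 and 257 to 377, 400 and 440, with a change of 0.65 ± 0.09 (limma, adjusted p = 3.77e-07) that did not pass when all lines shared 1 estimate of the spread (0.0815). It also rose in SCC1, from 19.5 and 64.8 to 87.6, 79.8 and 147 (1.47, adjusted p = 0.00123 by limma), a call lost without PBS replicate 1 (0.421). In SCC25 the cetuximab libraries were at 98.4, 72.3 and 104 and the PBS libraries at 59.9, 63.5 and 46.7, which did not overlap but did not pass (0.68, adjusted p = 0.142 by limma). Cetuximab libraries were thus above the PBS libraries of their own line in all 3 lines, and over all lines the change was 0.90 ± 0.18 (adjusted p = 0.00232 by limma), called under 25 of 25 alternatives.

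The next region towards JUNB, 5.01 kb upstream, was higher in SCC1 (1.23, adjusted p = 0.000401) and SCC6 (0.37, adjusted p = 0.00894, both by limma), the latter lost when centred (0.205) and without cetuximab replicate 1 (0.0585). With DESeq2 only 1 JUNB region was called higher in SCC6. The region 1.48 kb upstream, which holds the CArG box, was at 316, 204 and 274 with cetuximab and 122 and 132 with PBS in SCC1 (1.03 ± 0.20, adjusted p = 7.11e-05 by limma), and at 475, 560 and 564 against 515, 538 and 471 in SCC6, where it did not pass. Beyond the gene, 2.35 kb downstream of the start, the direction differed between lines. There SCC6 fell from 282, 282 and 296 to 157, 183 and 234 (-0.60, adjusted p = 9.29e-05), while SCC1 rose (0.84, adjusted p = 0.0239, both by limma). The SCC1 call was lost when any library but cetuximab replicate 2 was left out (adjusted p from 0.165 to 0.213). With the GC trend removed the SCC1 calls at these 4 JUNB regions were lost (limma, adjusted p from 0.152 to 0.629), as was the SCC6 fall (0.188). The JUNB promoter itself had changes of 0.66 in SCC1, -0.08 in SCC6 and -0.12 in SCC25, none of which passed.

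JUND, the Jun protein kept at a steady level in most cells, rose at its promoter in SCC1 (chr19:18392095-18393016), from 74.2 and 88.2 to 165, 127 and 202 (0.99 ± 0.24, adjusted p = 0.00167 by limma). The call was lost without PBS replicate 1 (adjusted p = 0.116 by limma) and with the GC trend removed (0.382). In SCC25 the cetuximab libraries, at 172, 195 and 166, were all above the PBS libraries at 129, 109 and 118. That change of 0.58 had an adjusted p of 0.0756 by limma, of 0.00345 with edgeR and of 0.00837 with DESeq2, and passed in 6 of 16 alternatives. In SCC6 the promoter was at 144, 172 and 202 against 213, 225 and 179 and did not pass. The region 19.6 kb upstream fell in SCC6, from 33.8, 23.4 and 34.8 to 8.08, 15.8 and 14.5 (-1.23 ± 0.35, adjusted p = 0.00606 by limma), a call lost with the GC trend removed (0.13) and with all libraries in 1 fit (0.112).

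**Figure D3:**
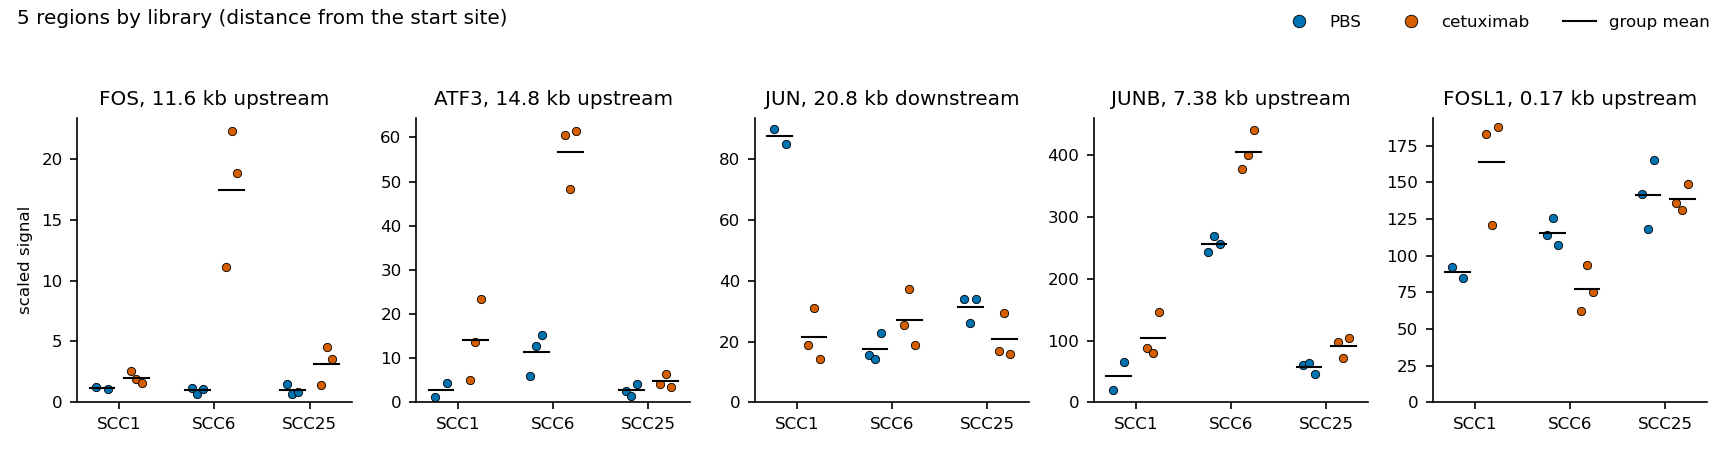
Scaled signal by library at 5 regions, named by gene and distance from its start site, with PBS in blue, cetuximab in orange and a line at each group mean. The FOS and ATF3 regions are highest in the 3 SCC6 cetuximab libraries, the JUN region is highest in the 2 SCC1 PBS libraries, and the FOSL1 promoter moves in opposite directions in SCC1 and SCC6.

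ATF3 encodes a stress-induced relative that often represses transcription as a homodimer. Its intronic region 14.8 kb upstream of the canonical start had 60.6, 48.3 and 61.5 in the SCC6 cetuximab libraries and 6.04, 12.7 and 15.2 in PBS, means of 56.8 ± 7.39 and 11.3 ± 4.75 (SD, n = 3 each). The groups were far apart, from 52 to 186 reads against 5 to 19. This was the largest rise among the tested AP-1 regions in SCC6, at 2.31 ± 0.32 on the log2 scale (limma, adjusted p = 1.71e-07), and it was called under all 16 alternatives, with values from 1.95 to 2.55. Only the 3 SCC6 cetuximab libraries had a peak there. In SCC1 the signal was 5.08, 13.6 and 23.5 against 1.3 and 4.47 (1.87, adjusted p = 0.114 by limma), and in SCC25 4.22, 6.51 and 3.54 against 2.64, 1.44 and 4.24. Over all lines the change was 1.59 ± 0.33 (adjusted p = 0.00318 by limma; 25 of 25 alternatives), and the interaction was not called (adjusted p = 0.22), so no difference between the lines was shown; with 5 added in place of 1 the interaction had an adjusted p of 0.0343. The ATF3 promoter (chr1:212781533-212782236), a peak in every library, did not pass in any line, with changes of 0.25, -0.04 and 0.06 in SCC1, SCC6 and SCC25.

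BATF and BATF3 lack a transactivation domain and are best known from lymphoid and dendritic cells. The BATF promoter (chr14:75987785-75988240) was at 58.4, 33.1 and 62.6 against 19.5 and 23.4 in SCC1 and at 36.6, 14.3 and 30.1 against 15.5, 5.77 and 9.33 in SCC25. In SCC6 it was at 59.6, 66.8 and 85.6 against 67.7, 44.2 and 57.6. The groups overlapped in SCC6 and SCC25 but not in SCC1. Over all lines it rose by 0.92 ± 0.23 (limma, adjusted p = 0.0117; 25 of 25 alternatives, 0.78 to 1.01), and in SCC1 alone by 1.17 ± 0.39 (adjusted p = 0.0313), which did not pass when any library but cetuximab replicate 2 was left out (adjusted p from 0.117 to 0.279). The BATF3 promoter (chr1:212872383-212872811) fell in SCC6, from 77.3, 53.5 and 39.2 to 20.2, 25.1 and 27.8 (-1.14 ± 0.27, adjusted p = 0.00116 by limma), a call kept in 15 of 16 alternatives and lost with the GC trend removed (0.0861). The region 32.2 kb downstream of BATF3 rose in SCC6, from 38.7, 45.5 and 51.1 to 81.8, 76.1 and 75.4 (0.78, adjusted p = 0.00479 by limma), under every alternative tried.

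With line as a term and all 17 libraries in 1 fit, 7 of 61 AP-1 regions were higher after cetuximab and none lower, against 4.58% higher and 7.22% lower of all regions. Of the 7, 4 belonged to JUNB, and ATF3, BATF and FOSL2 had 1 each. The count was 4 without SCC1 PBS replicate 1. The FOSL2 region, 44.3 kb downstream, was the least stable of those named, at 0.33 ± 0.11 (limma, adjusted p = 0.0462) and called in 8 of 25 alternatives.

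Lines were also compared without treatment. Between PBS libraries, 26 of 61 AP-1 regions were higher and 12 lower in SCC6 than in SCC1, against 27.5% and 31% of all regions. In SCC25 against SCC1, 23 were higher and 15 lower, against 29.4% and 22.9%. In SCC25 against SCC6, 13 were higher and 24 lower, against 38% and 28.7%. With the libraries centred the last split was 9 and 34, with quantile normalization 10 and 30, and with the GC trend removed 15 and 15. The GC removal also moved SCC25 against SCC1, to 30 and 8. These comparisons share PBS libraries with each other, and SCC1 had 2.

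The clearest line difference was at JUNB, where 11 of 11 regions were higher in SCC6 than in SCC1 and 10 of 11 were higher in SCC25. The surroundings moved with it. The median difference between SCC6 and SCC1 was 2.14 for JUNB and 2.52 for the 97 regions within 1 Mb outside its window, of which 95.9% were higher, and for FOSB it was 1.34 beside 1.38 and for JUND 0.94 beside 1.04. DNA copy number was not measured, so a gain of the chromosomal segment and more open chromatin cannot be told apart. FOSL2 went further than its surroundings, with a median of -1.56 beside -0.50, and BATF3 had the opposite sign, with 0.67 beside -0.40. The FOSL2 regions 15.4 and 14.6 kb upstream were at 0.928 to 6.06 and 9.09 to 14.7 in the 6 SCC6 libraries and at 58.1 to 140 and 93.4 to 155 in the SCC1 libraries (PBS: -3.86, adjusted p = 4.38e-06, and -2.86, adjusted p = 1.11e-07 by limma).

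**Figure D4:**
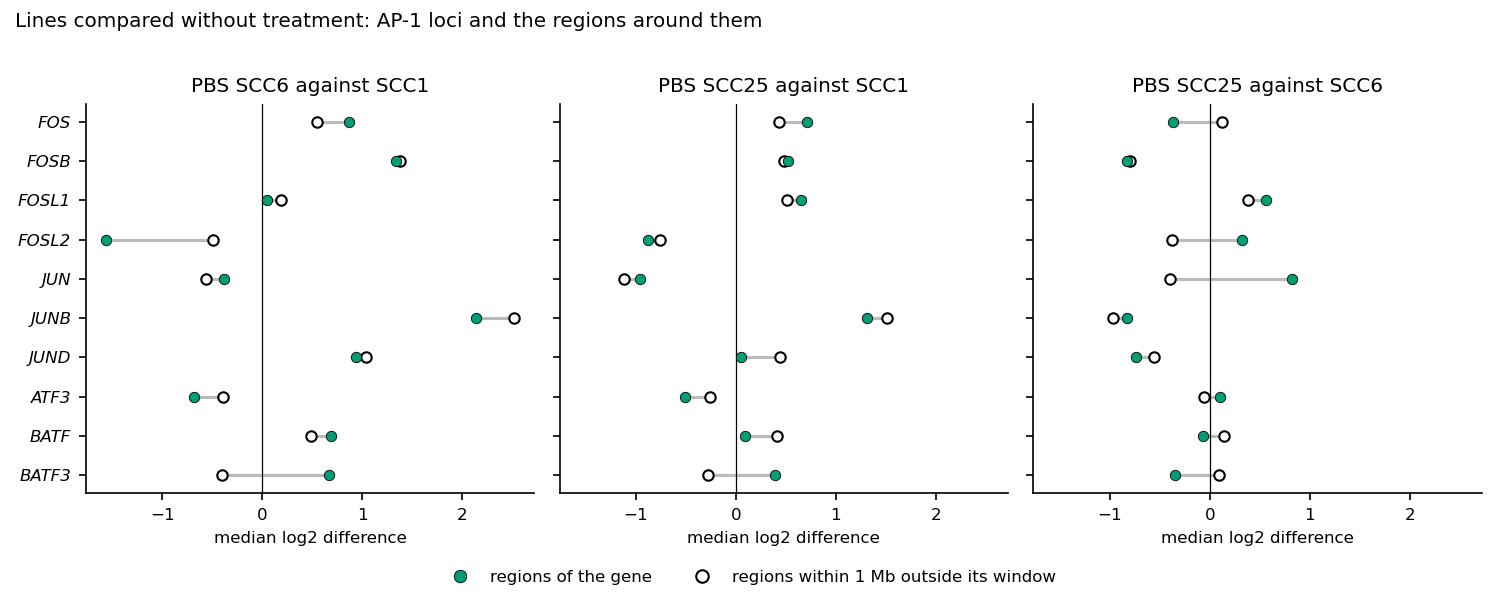
Median log2 difference between lines in PBS for the tested regions of each gene (filled) and for the regions within 1 Mb outside its window (open), in 3 line comparisons. JUNB and FOSB lie close to their surroundings in each panel, while FOSL2 and BATF3 in SCC6 against SCC1 and JUN in SCC25 against SCC6 lie apart from theirs.

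The JUN promoter had a lower signal in SCC25, with PBS means of 298 ± 30.5 in SCC1 (SD, n = 2), 345 ± 38.1 in SCC6 and 141 ± 9.65 in SCC25 (SD, n = 3 each). SCC25 was lower than SCC1 by -1.07 (adjusted p = 3.01e-06) and than SCC6 by -1.28 (adjusted p = 5.39e-08, both by limma), under all 18 alternatives each. The median of the JUN regions in SCC25 against SCC1 was -0.96 beside -1.12 around the gene, and copy number and accessibility cannot be told apart here either. In SCC25 against SCC6 it was 0.82 beside -0.40, although the promoter was lower. The BATF promoter was lower in SCC25 than in SCC6 (-2.43, adjusted p = 1.31e-05 by limma). Per 100 bases of region, the PBS signal of the promoters was highest at ATF3 (47.7) and JUN (40.2) in SCC1, at JUNB (65) and JUN (46.5) in SCC6, and at JUNB (36.4) and FOSL1 (35.6) in SCC25, and lowest at BATF in each line (4.71, 12.4 and 2.23).

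The wider pathway was read at the promoters of listed genes, beside 13.1% higher and 1.53% lower of the promoters of any gene in SCC1 and 3.63% higher and 10.7% lower in SCC6. Of 9 bZIP relatives and partners with a promoter region, 4 were higher in SCC1 (ATF7, MAFF, MAFG and MAFK, with MAFK at 1.75 and adjusted p = 3.96e-05 by limma), while in SCC6 MAFF was lower (-0.64). Of 12 upstream kinases and factors, 4 were higher in SCC1 (MAPK9 1.03, MAPK14 0.98, MAP2K7 1.07 and MAP3K1 0.91) while MAPK9 (-0.64) and MAP2K7 (-0.35) were lower in SCC6. None of either list passed in SCC25. With the GC trend removed each of these named promoters lost its call in its line, and apart from MAFK in SCC1 each was also lost in at least 1 fit that left out a library.

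Of 15 known AP-1 targets, 12 had a promoter region, and in SCC6 5 of them were lower and MMP10 higher (0.35). The MMP10 call was lost when centred, with DESeq2 and with all libraries in 1 fit. MMP1, the interstitial collagenase, had a mean promoter signal of 87.6 ± 10.3 with cetuximab and 270 ± 31.4 with PBS in SCC6 (SD, n = 3 each), a change of -1.61 ± 0.14 (limma, adjusted p = 4.8e-13). It fell under all 16 alternatives, and in SCC1 it was also lower (-2.22), a call lost without either PBS library. PLAU, the urokinase gene, fell in SCC6 (-1.24) under all 16 alternatives. SPRR1B (-0.61), MMP13 (-0.49) and PLAUR (-0.44) fell in SCC6 as well, in 7, 10 and 13 of 16 alternatives. The first 2 did not pass in every fit that left out a library. In SCC1 PLAUR was higher (0.61) and CXCL8 lower (-1.09), calls kept in 8 and 10 of 15 alternatives and lost without either PBS library. With the GC trend removed the calls of SPRR1B, MMP13, PLAUR and CXCL8 in these lines were lost. No listed target passed in SCC25. Over all lines 3 targets were lower, namely MMP1 (-1.36, adjusted p = 0.000523 by limma), PLAU (-0.67) and SPRR1B (-0.93), the last in 14 of 25 alternatives and not without either SCC1 PBS library. The list had a median of -0.33 for SCC1, -0.32 for SCC6 and -0.20 for SCC25, beside the values of all regions given above.

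Promoters whose log2 signal followed that of an AP-1 promoter most closely over the 17 libraries were listed by Pearson's r among 11978 promoter regions, as a description without a test, since the libraries share lines and depth. For JUN these were FUT4 (0.986), FGGY (0.982) and MPHOSPH6 (0.974). For FOSL1 they were WDR38 (0.952), EEIG1 (0.923) and PITPNM1 (0.922), and for FOS they were SIN3B (0.88), UQCC4 (0.878) and FEM1B (0.873).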

How the data were processed

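ATAC-seq was performed on 3 cell lines after 5 days of treatment, and 17 libraries were analysed here. The authors trimmed reads with Trim Galore 0.5.0, aligned them with Bowtie2 2.3.2 to hg19, filtered out duplicates and mitochondrial reads (Picard 2.18) and then reads that were unmapped or of low quality (SAMtools 1.9), and called peaks per library with MACS2 (version and cutoff not given in the sources used here). The deposited region table, in the form that DiffBind gives, holds a scaled signal per region and library, in which 100% of the values equalled whole reads times 1 step per library, within 0.001. Regions without reads were set to 1 read by the authors. The deposited peak files hold the fold enrichment of each peak (a ratio), used here to count which libraries had a peak. Whether reads were shifted to the Tn5 cut site is not given in the sources used here.

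Regions were assigned to genes with GENCODE release 44 lifted to GRCh37. The test was limma 3.58.1 in R 4.3.3 (trend and robust, two-sided) on log2(signal + 1), leaving out the lowest 25% of regions by mean over the fitted libraries, with Benjamini-Hochberg adjustment over all tested regions and a threshold of 0.05. The comparisons set cetuximab against PBS (per line, and jointly with a term for line), tested the interaction of line and treatment, and set the PBS libraries of the lines against each other. Every p-value printed is from limma unless edgeR 4.0.16 or DESeq2 1.42.0, run on the recovered reads, is named. The fold changes are on the log2(signal + 1) scale and understate those of low regions. The limma fits of all comparisons were tested on simulated data with known changes, and the edgeR and DESeq2 fits were not. At a simulated log2 change of 2, larger than many reported here, 61% (interaction) to 96% (all lines) of 200 changed regions were recovered. Between PBS libraries, 31 of 205 calls in SCC6 against SCC1 and 31 of 194 in SCC25 against SCC1 were false, above the share that the threshold of 0.05 allows. Elsewhere at most 9 of 193 calls were false.

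Regions were named by a rule: the promoter of each gene and, for each gene and comparison, the called region with the smallest adjusted p, with list genes named where called and with the 3 closest promoters for FOS, FOSL1 and JUN. Other called regions, and the region 11.6 kb upstream of FOS, were named after their values were seen. Some list genes are not reported here. The members and lists were chosen with earlier results of these data known. Of the 65 regions, 62 were tested in SCC1 and SCC6 and 61 elsewhere. Replicates of a group correlated with r between 0.879 and 0.961 over 16 pairs, and no pair agreed within counting noise (chi-square per degree of freedom 1.9 to 3.63). A mean is given with the SD between libraries. The number of reads in a region limits the precision of its signal.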

Additional observations from a re-analysis of the deposited data

Results flagged for a closer look

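Of 61 tested AP-1 regions, 17 differed between the 3 lines in their response to cetuximab (interaction of line and treatment, limma, adjusted p). Of all regions, 13.8% were called. Each AP-1 region is given with its place relative to the start site of the named gene. At FOS these were the promoter (adjusted p = 0.0466) and the region 19.8 kb upstream (0.0101). At FOSB they were the promoter (0.0441), the regions 17.1 kb upstream (0.0122) and 10.9 kb downstream (0.00267) at ERCC1 start sites, and the region 17.4 kb downstream (0.0228). FOSL1 had the smallest adjusted p, 9.52e-05, at the CCDC85B promoter 9.5 kb downstream, beside its own promoter (0.00185) and the regions 18.9 kb (0.00101) and 15.5 kb upstream (0.0101). At the Jun genes they were the region 20.8 kb downstream of JUN (0.00319), the JUND promoter (0.00206), and the JUNB regions 16.1 kb (0.0345), 5.01 kb (0.00873) and 1.48 kb upstream (0.00194) and 2.35 kb downstream (0.00303). The last was the region 32.2 kb downstream of BATF3 (0.028).

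With the GC trend removed in each library, 4 of the 61 tested regions (6.56%) passed the interaction, beside 8830 of all 86315 regions. Among all regions at or above the AP-1 median GC content, 15% were higher and 0.697% lower in SCC1, and 1.96% were higher and 11% lower in SCC6.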

How the results depend on the processing

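Of 2368 combinations of a named result and an alternative, 2145 kept their side of the threshold, 161 lost the call and 60 gained it. In 55 an uncalled value changed sign, and 2 called values turned sign, both in SCC25 against SCC6 in PBS with the GC trend removed: the region 15.4 kb downstream of FOS (0.002, adjusted p = 0.992 by limma) and the FOSL2 promoter (0.071, adjusted p = 0.763). The cause was not tested. Counts of called AP-1 regions that moved by over 1.5 times were, in SCC1 (17), 27 when centred, 26 with edgeR, 3 with the GC trend removed and 5 to 25 leaving out 1 library; in SCC6 (15), 9 with all libraries in 1 fit and 10 to 16 leaving out 1. In SCC25 (0, beside 240 of 86315) the count was 1 when centred (139), with quantile normalization (292) and with DESeq2 (272), and 2 with edgeR (939). It was 0 to 1 leaving out 1 (0 to 529). When scaled to regions without a peak it was 4 of 61, all lower, beside 13520 of all regions, of which 13414 were lower. Over all lines (7, beside 10185 of 86315) it was 11 with DESeq2 (13985) and 5 to 7 leaving out 1 library other than SCC1 PBS. The interaction (17, beside 11879 of 86315) gave 4 with the GC trend removed (8830). It gave 13 to 22 leaving out 1 library other than SCC1 PBS. Between lines in PBS the counts were 37 to 42, 30 to 39 and 33 to 39 leaving out 1; without 1 SCC1 PBS library the lone one left is assumed to vary like the other groups.

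The replicate block gave 26 calls in SCC1, 15 in SCC6, 1 in SCC25, 6 over all lines, 17 for the interaction and 39, 34 and 37 between lines. Over all tested regions the same fits gave 12500, 24058, 712, 8674 and 11839 calls, and 48397, 42476 and 56944 between lines. Same-numbered libraries did not deviate together (r from -0.03 to 0.021 over 8 pairs, and from -0.04 to 0.043 over 16 pairs of other numbers). Counting noise in regions of few reads lowers such correlations, so they cannot show whether same-numbered libraries shared a batch. Depth limits regions of few reads, most in SCC1.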

Other observations

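Some AP-1 regions differed widely between the lines. A pair of regions inside the long ATF3 transcripts, 33.7 and 31.4 kb upstream of the canonical start, were at 22.5 to 34.3 and 35.7 to 80.8 in the 6 SCC6 libraries and at no more than 2.81 in the libraries of SCC1 and SCC25. In PBS the second had a mean of 38.2 in SCC6 and at most 1 read in each SCC1 library, so that SCC6 was at least 10.5-fold higher against a floor of 3 reads per library. Both were left out of the line comparisons by the filter on low signal, and without that filter their differences between SCC6 and SCC1 were 3.26 and 4.15 (limma, adjusted p = 2.76e-06 and 4.43e-07).

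A region inside BATF, 20.4 kb downstream of the start, was at 42.2 to 67.7 in SCC25 and at 1.3 to 13.6 in the other lines (3.34 between SCC25 and SCC1 in PBS, adjusted p = 0.000135 by limma). An intronic region of BATF3, 6.63 kb downstream of the start, was at 13 and 16.7 in SCC1 PBS, at 1.27, 1.95 and 4.69 in SCC1 cetuximab, at 11.2 to 20.7 in SCC25 and at no more than 4.01 in SCC6. Its difference of -2.23 between cetuximab and PBS in SCC1 had an adjusted p of 0.0536 by limma, and passed with 5 added in place of 1 (0.0345), when scaled to regions without a peak (0.0434) and without cetuximab replicate 3 (0.0456).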
